A study of Homo sapiens with 16 samples.

Results

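The response of MCF10A cells overexpressing PHF8 to 72 h of TGF-β1 was described across 13564 genes, from 4 of the 16 libraries of the study. MCF10A is a non-tumorigenic human mammary epithelial line that is grown attached, in medium with horse serum, epidermal growth factor (EGF), insulin, hydrocortisone and cholera toxin, which all groups shared. The 72 h libraries (n = 2) came from PHF8-overexpressing cells given TGF-β1 at 5 ng/ml for 72 h, and the untreated libraries (n = 2) from the same overexpressing cells without it. A gene entered when its value reached 3.33 on the log2 scale, about 10 normalised counts, in at least 2 of the 16 libraries. For comparison, the PHF8 stock at 24 and 48 h of TGF-β1 and a Mock stock, which carries an empty vector, at 72 h and untreated were used, with n = 2 libraries each. Every group was sampled as a replicate 1 and a replicate 2, which were sequenced in a first and a second round. The labels name a single overexpressing stock, do not say whether it is a clone or a pool, and do not state from how many cultures the 2 replicates came. The p-values therefore rest on the spread of these libraries alone, which may be technical.

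TGF-β1 is a secreted cytokine that binds a complex of type I and type II receptor kinases. The activated receptors phosphorylate SMAD2 and SMAD3, which join SMAD4, enter the nucleus and, with partner factors such as AP-1, change the transcription of target genes, among them inhibitors of the pathway itself. In mammary epithelial cells this signal is known for growth arrest and for the epithelial-mesenchymal transition (EMT), in which cells give up junctions and apical-basal polarity and gain matrix, integrins and a contractile cytoskeleton. PHF8 is a histone demethylase of the JmjC family.

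Levels are given as deposited, in log2 expression of a gene in a library, and 2 raised to a level is taken as its normalised count. Differences are 72 h minus untreated on that log2 scale, with the standard error (SE) of a limma model over the 16 libraries, and "called" means an adjusted p under 0.05 over all 13564 genes. A single value in brackets after a gene is such a difference. Because replicate numbers mark sequencing rounds, a second fit held the replicate number as a block, and its adjusted p is given wherever it changed a call. PHF8 itself was at 14.73 and 14.23 after 72 h, against 14.47 and 13.64 untreated, a difference of 0.43 ± 0.332 (adjusted p = 0.492, n = 2 per group). The groups overlapped, and all 4 libraries lay far above the Mock libraries at the same conditions, which were at 9.26 and 9.55 after 72 h and 9.65 and 9.61 untreated.

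All 10 basal mammary markers passed the filter, and their summed normalised counts were 157000 and 314000 after 72 h, against 139000 and 172000 untreated. Of 13 luminal markers 6 passed, which were ESR1, FOXA1, KRT8, KRT18, MUC1 and GATA3. Those below the limit included KRT19, ELF5, KIT, PROM1 and PRLR, and PGR was at 0 in every library. The luminal sums were 10600 and 13600 after 72 h, against 9310 and 12500 untreated. Of 10 fibroblast markers 4 passed, and the defining markers COL3A1, LUM, PDGFRA, PDGFRB, THY1 and DPT lay below the limit. The fibroblast sums were 8210 and 6930 after 72 h, against 6230 and 1100 untreated, and COL1A1 and FAP of this list rose. Of 12 endothelial and blood markers 4 passed, which were PECAM1, KDR, TEK and CD68. The sums of this list were 1250 and 821 after 72 h, against 888 and 720 untreated. CD3E, HBB and HBA1 were among those at 0. Markers of basal mammary epithelium were thus present in these cells, labelled MCF10A, and these defining markers of T cells and red cells were at 0. Some markers of the luminal, fibroblast, and endothelial and blood lists were present as well.

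After 72 h, 708 of 13564 genes were higher (5.22%) and 565 lower (4.17%). With the replicate block 1594 were higher (11.8%) and 1580 lower (11.6%), and these included all 1273 genes called without it. Counts of called list members below are to be read beside these shares. The lists were written with earlier results of these data known, so these counts are a description only. At least 2-fold differences were reached by 319 of the higher and 238 of the lower genes, and 8-fold differences by 24 and 21. In each called gene both 72 h libraries lay on the same side of both untreated libraries, which was also true of 52.2% of all genes tested. The differences within replicate 1 and within replicate 2 had a Pearson r of 0.783 across all genes and 0.95 across the called genes, where genes are not independent replicates and the called genes were chosen for differences in both. The response of called genes was larger in replicate 2 in 859 of 1273. Because these are bulk libraries, a change in the share of cells that express a gene and a change in RNA per cell cannot be told apart.

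**Figure D1:**
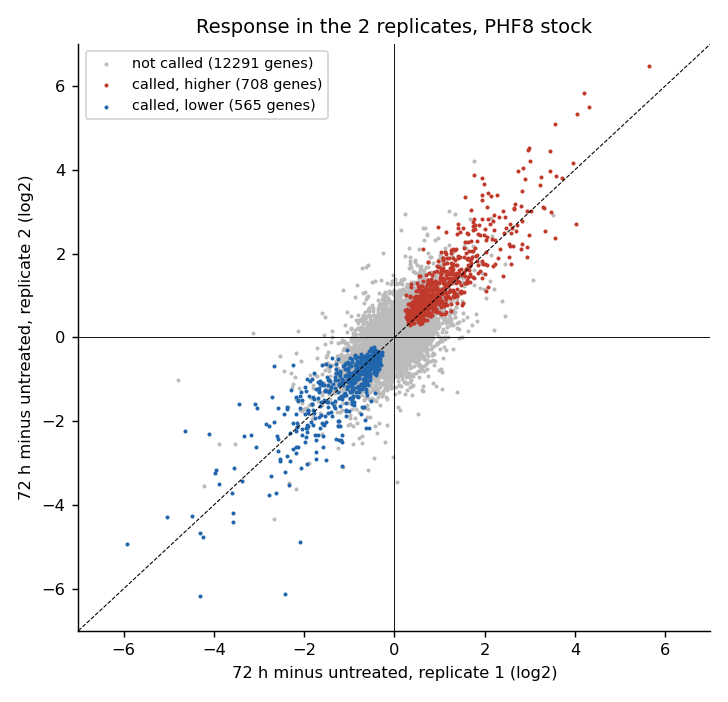
Difference 72 h minus untreated of the PHF8 stock in replicate 1 (x axis) and replicate 2 (y axis), log2 scale, 1 point for each of the 13564 genes. Called genes are red (708 higher) or blue (565 lower), the dashed line marks equal differences, and the largest increases lie above it, with larger values in replicate 2.

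The call of many genes rested on single libraries. Without the 72 h replicate 1 library 469 genes were called and without the 72 h replicate 2 library 552. Without the untreated replicate 1 library the count was 901, and without the untreated replicate 2 library it was 394. A total of 294 genes (23.1%) kept their call in all 4 of these fits. Where a gene named below lost its call in such a fit, the library left out is given, with the range of adjusted p over the 4 fits in brackets. A fit to the 4 libraries of the comparison alone, with 2 residual degrees of freedom, called 230.

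The 15 largest increases were led by 2 matrix proteins. The matrix protein periostin, POSTN, was at 12.42 and 11.68 after 72 h, against 6.78 and 5.21 untreated. This was the largest increase, 6.06 ± 0.548 (adjusted p = 0.000162), or 66.5-fold. Fibronectin, FN1, which links integrins to the matrix, was at 18.74 and 18.28 after 72 h, against 14.54 and 12.45 untreated (5.02 ± 0.668, adjusted p = 0.0014). In both genes the untreated replicate 2 library was the lowest of the 4, and the groups were far apart.

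KANK4, of a family of adaptors between adhesions and the cytoskeleton, was at 10.74 and 11.21 after 72 h, against 6.42 and 5.70 untreated (4.91 ± 0.357, adjusted p = 7.96e-05). The 72 h pair of KANK4 lay far above its untreated pair. ITGB3, the β3 integrin subunit, was at 8.98 and 8.43 after 72 h, against 5.02 and 4.27 untreated (4.06 ± 0.319, adjusted p = 9.89e-05). LBH, a transcriptional cofactor, rose by 4.69 ± 0.401 (adjusted p = 0.000129), with 10.75 and 10.50 against 6.71 and 5.16 untreated.

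Others of the 15 largest increases were ALOX5AP (3.94), which presents arachidonic acid to its lipoxygenase in leukotriene synthesis, the LIM-domain cofactor LMCD1 (3.75), the adhesion scaffold NEDD9 (3.74), the secretory chaperone SCG5 (3.71), the nicotinic receptor subunit CHRNA9 (3.71), the myosin MYO7B (3.71), the potassium channel KCNJ15 (3.61) and the enamel matrix protein AMTN (3.54). Adjusted p of the 15 lay between 7.96e-05 and 0.00819, and the difference was larger in replicate 2 than in replicate 1 in all 15. AMTN (0.0316 to 0.0672) lost the call without the untreated replicate 2 or 72 h replicate 2 library. The other 14 kept it.

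The 15 largest decreases were led by a signalling regulator and an enzyme. FAM65B, an inhibitor of RhoA, was at 4.19 and 3.45 after 72 h, against 10.12 and 8.37 untreated (-5.43 ± 0.882, adjusted p = 0.00396), which is 43.0-fold lower. The aldehyde dehydrogenase ALDH3A1 was at 6.53 and 4.52 after 72 h, against 10.84 and 10.69 untreated (-5.24 ± 0.828, adjusted p = 0.00337). Its untreated libraries were close together, and the 72 h replicate 2 library was lower than that of replicate 1.

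Periplakin, PPL, a plakin that ties desmosomes and the cornified envelope to keratins, was at 5.19 and 6.08 after 72 h, against 10.23 and 10.36 untreated (-4.66 ± 0.583, adjusted p = 0.000921). S100A8 and S100A9, which together form the alarmin calprotectin, fell in parallel. S100A8 was at 6.26 and 6.99 after 72 h, against 10.50 and 11.75 untreated (-4.50 ± 0.635, adjusted p = 0.00192). S100A9 was at 7.52 and 8.73 after 72 h, against 11.83 and 13.41 untreated (-4.49 ± 0.739, adjusted p = 0.00417). In both, each replicate 2 library was above its replicate 1 counterpart, and the groups did not overlap.

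FGFBP1, a carrier that releases fibroblast growth factors from the matrix, fell by 4.37 ± 0.58, and the epidermal transglutaminase TGM1 fell by 3.88 ± 0.471. Others of the 15 largest decreases were in the membrane protein SUSD2 (-3.99), the calcium-binding S100P (-3.69), the water and glycerol channel AQP3 (-3.65), the cytochrome P450 CYP1B1 (-3.40), the endotoxin coreceptor CD14 (-3.33), the organic anion transporter SLCO4A1 (-3.28), the epithelial ETS factor EHF (-3.21) and the serpin SERPINB3 (-3.02), which has a near-identical paralog, so that its counts are uncertain. Adjusted p of the 15 largest decreases lay between 0.000809 and 0.0242. CYP1B1 (0.0309 to 0.103) lost the call without the untreated replicate 1 or 72 h replicate 2 library. SERPINB3 (0.0169 to 0.214) lost the call without the 72 h replicate 1 or untreated replicate 2 library.

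**Figure D2:**
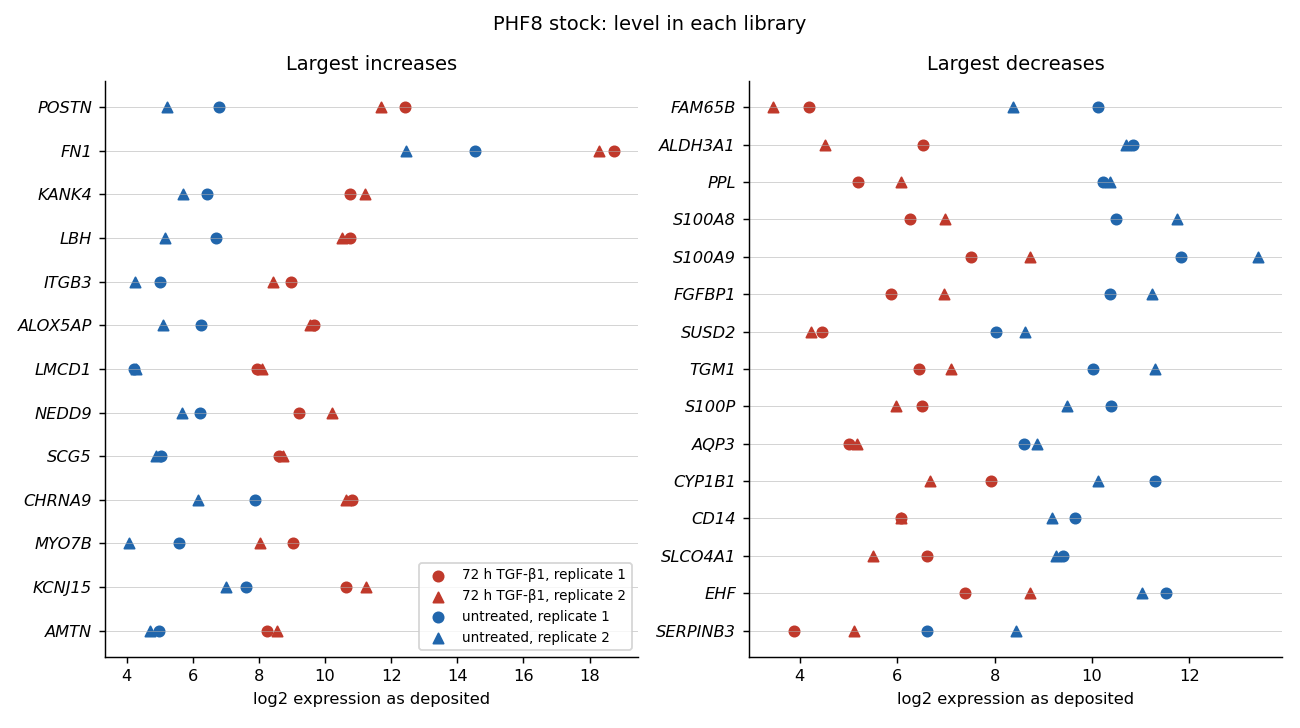
Level in each of the 4 PHF8-stock libraries (x axis, log2 expression as deposited) of 13 of the 15 largest increases (left) and the 15 largest decreases (right). Red symbols are 72 h and blue symbols untreated, circles replicate 1 and triangles replicate 2, and in each of the 28 genes the 2 groups are apart, as in POSTN at 12.42 and 11.68 against 6.78 and 5.21.

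Upstream sequences of 20 of these 30 genes were found in the RefSeq promoter table (GRCh38.p14), and the 250 bases before each start were searched on both strands. The E-box CACCTG, bound by SNAI and ZEB repressors, was in 3 of 12 risen and 3 of 8 fallen genes, against 20.6% of all 27305 promoters. The SMAD box CAGACA was in 3 of 12 and 3 of 8 (16.3% of all), and the AP-1 site TGAGTCA in 2 of 12 and 1 of 8 (5.19% of all). The palindromic box GTCTAGAC was in none of the 20 (0.231% of all), which says only that these letters were not in this window. None of the motifs contains another. Shown are the gene with the largest increase, the risen gene with the most SMAD boxes, and a member of the calprotectin pair, each 5′ to 3′ on the gene's own strand, with the motif on either strand in capitals.
POSTN, chr13:37598769-37599018, minus strand, AP-1 site 220 bases before the start: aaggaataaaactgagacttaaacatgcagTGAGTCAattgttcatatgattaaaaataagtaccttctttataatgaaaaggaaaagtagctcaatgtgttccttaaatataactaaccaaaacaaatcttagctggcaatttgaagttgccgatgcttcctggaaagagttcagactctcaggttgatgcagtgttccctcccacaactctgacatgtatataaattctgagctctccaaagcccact
AMTN, chr4:70518319-70518568, plus strand, SMAD boxes 225, 144 and 81 bases before the start: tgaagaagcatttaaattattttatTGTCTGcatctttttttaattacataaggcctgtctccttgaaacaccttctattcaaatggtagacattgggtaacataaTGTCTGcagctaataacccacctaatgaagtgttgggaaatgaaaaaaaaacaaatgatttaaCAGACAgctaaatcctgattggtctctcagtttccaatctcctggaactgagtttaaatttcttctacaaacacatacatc
S100A9, chr1:153357604-153357853, plus strand, E-box 92 bases before the start: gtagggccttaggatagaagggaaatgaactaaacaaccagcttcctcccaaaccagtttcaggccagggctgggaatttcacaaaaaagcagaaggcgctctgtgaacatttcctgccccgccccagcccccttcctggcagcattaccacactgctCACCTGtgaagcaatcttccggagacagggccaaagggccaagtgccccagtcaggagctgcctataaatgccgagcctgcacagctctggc

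Most ligands, receptors and latent binding proteins of the pathway itself were not called. Of 23 tested ligands, receptors and latent binding proteins 5 rose and 2 fell, with a median of -0.03. LTBP2, a latent TGF-β binding protein of microfibrils, was at 12.77 and 12.89 after 72 h, against 10.88 and 10.46 untreated (2.16 ± 0.235, adjusted p = 0.000466). The type I receptor TGFBR1 rose by 1.32 ± 0.274 (adjusted p = 0.0129), the BMP receptor BMPR2 by 0.95 ± 0.165 (adjusted p = 0.00536) and LTBP1 by 0.89. The coreceptor TGFBR3, betaglycan, was at 8.18 and 7.42 after 72 h, against 9.83 and 9.59 untreated (-1.91 ± 0.381, adjusted p = 0.0107), and the stress-induced ligand GDF15 fell by 1.83 ± 0.2 (adjusted p = 0.000468).

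The type II receptor TGFBR2 had a difference of -0.23, adjusted p = 0.589, and the ligands TGFB1 (0.19, adjusted p = 0.785) and TGFB2 (-0.48, adjusted p = 0.705) were not called. INHBA, the activin A subunit, was at 8.09 and 8.72 after 72 h, against 5.98 and 7.38 untreated (1.73, adjusted p = 0.0809 and 0.0107 with the block). TGFBR1 (0.0263 to 0.107) lost the call without the untreated replicate 2 or 72 h replicate 2 library. BMPR2 (0.00599 to 0.0592) lost the call without the untreated replicate 2 library. LTBP1 (0.0221 to 0.082) lost the call without the 72 h replicate 1 or untreated replicate 2 library. TGFBR3 (0.0239 to 0.0906) lost the call without the untreated replicate 1, untreated replicate 2 or 72 h replicate 2 library. Of the list 2 to 6 were called with 1 of the 4 libraries left out, fewest without the untreated replicate 2 library.

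Among 22 SMADs and feedback regulators 5 rose and 1 fell, and with the block 6 and 4. PMEPA1, a membrane protein that sequesters receptor-activated SMADs, was at 14.03 and 14.03 after 72 h, against 11.29 and 10.06 untreated (3.35 ± 0.384, adjusted p = 0.000567). SMAD7, the inhibitory SMAD, was at 9.85 and 9.86 after 72 h, against 8.07 and 7.72 untreated (1.96 ± 0.241, adjusted p = 0.000845). The 2 values of each gene after 72 h were nearly equal, and both lay above the untreated pair. The corepressor SKIL (1.42) and USP11 (1.00) rose as well, and the ubiquitin-specific protease USP15 was lower (-0.41). The signal transducers SMAD2 (0.07, adjusted p = 0.687), SMAD3 (-0.09, adjusted p = 0.907) and SMAD4 (-0.01, adjusted p = 0.966) were not called. SKIL (0.00263 to 0.069) and USP11 (0.0101 to 0.0753) lost the call without the 72 h replicate 1 or untreated replicate 2 library. USP15 (0.0518 to 0.126) lost the call without any 1 of the 4 libraries. Of the list 3 to 5 were called with 1 of the 4 libraries left out, fewest without the 72 h replicate 1 or untreated replicate 2 library.

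Of 36 tested direct SMAD target genes, 18 rose and 0 fell, which is 50.0% against 5.22% of all genes. As with the other lists, members were chosen with earlier results known, so this contrast is no independent test. With the block 28 rose. The median difference was 1.91, with 1.61 in replicate 1 and 2.16 in replicate 2. TAGLN, the actin-binding transgelin, was at 12.97 and 12.99 after 72 h, against 9.40 and 10.61 untreated (2.97 ± 0.419, adjusted p = 0.00192). The cytokine IL11 was at 7.52 and 7.83 after 72 h, against 4.85 and 4.64 untreated (2.92 ± 0.421, adjusted p = 0.00208). Both were clearly separated between groups. SNAI1, BHLHE40, RUNX1, THBS1, HMGA2 and KLF10 were not called without the block and passed with it, with adjusted p of 0.0034, 8.8e-05, 0.00194, 0.00378, 0.00653 and 0.0077. The 3 tested ID genes, transcriptional inhibitors that fall under TGF-β in epithelial cells and rise under BMP, were not called. The difference was -0.48 for ID1 (adjusted p = 0.183) and -1.18 for ID2 (adjusted p = 0.313). Of the SMAD targets 13 to 18 were called with 1 of the 4 libraries left out, fewest without the untreated replicate 2 library.

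**Figure D3:**
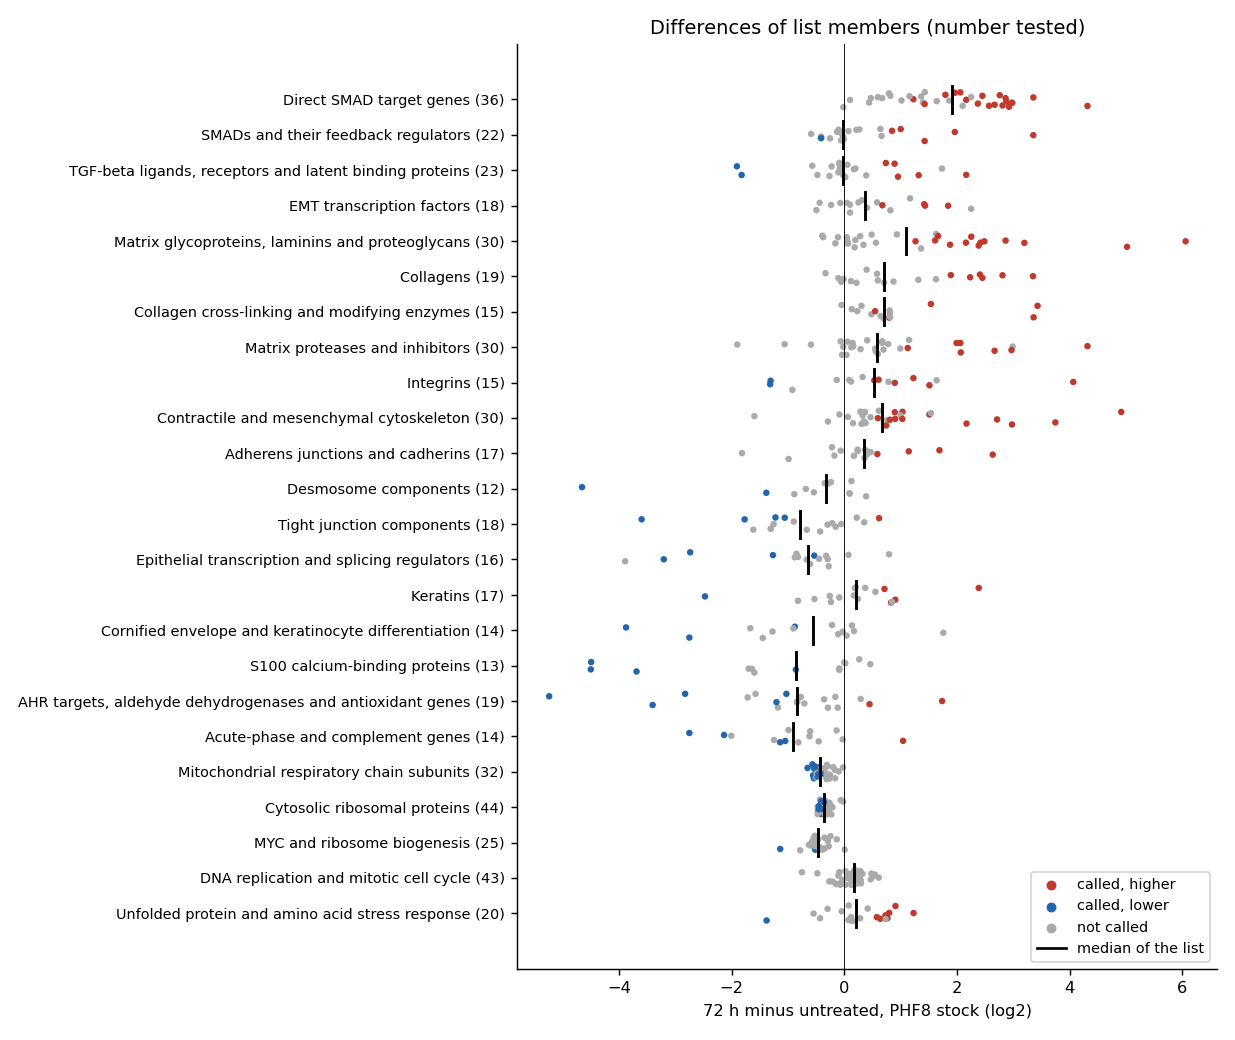
Difference 72 h minus untreated in the PHF8 stock (x axis, log2) of the tested members of 24 gene lists, with the number tested in brackets. Red points are called higher, blue points called lower and grey points not called, and the black bar is the list's median, which is 1.91 for direct SMAD targets and -0.37 for ribosomal proteins (vertical scatter within a list has no meaning).

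EMT transcription factors changed in part. Of 18 tested 4 rose and 0 fell, and with the block 7 rose and 1 fell. SNAI2, a repressor of epithelial genes, was at 11.87 and 12.11 after 72 h, against 10.33 and 9.97 untreated (1.84 ± 0.198, adjusted p = 0.000466). The T-box repressor TBX3 (1.43, adjusted p = 0.00509), SOX4 (1.42, adjusted p = 0.00204) and ETS1 (0.67, adjusted p = 0.0261) rose less. SNAI1 was at 7.30 and 8.04 after 72 h, against 5.62 and 5.22 untreated, a difference of 2.25 ± 0.694 (adjusted p = 0.0675; 0.0034 with the block). Both 72 h libraries lay above both untreated ones, and the replicates differed in size of response.

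ZEB1 was at 9.66 and 8.48 after 72 h, against 8.73 and 7.07 untreated (1.17, adjusted p = 0.257; 0.0172 with the block). In ZEB1 replicate 1 lay above replicate 2 in both groups, and the untreated replicate 1 library was above the 72 h replicate 2 library, so the groups overlapped. ZEB2 (0.58, adjusted p = 0.771; 0.362 with the block) and TWIST1 (-0.50, adjusted p = 0.31; 0.0766 with the block) were not called in either fit. TBX3 (0.00759 to 0.0581) lost the call without the 72 h replicate 1 or untreated replicate 2 library. ETS1 (0.0351 to 0.186) lost the call without the untreated replicate 1, untreated replicate 2 or 72 h replicate 2 library. Of the list 2 to 3 were called with 1 of the 4 libraries left out, fewest without the untreated replicate 2 library.

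Transcription and splicing regulators of the epithelial state were lower where called: of 16 tested 0 rose and 4 fell, and 14 were lower in both replicates, against 37.7% of all genes tested. With the block 1 rose and 9 fell. The grainyhead factor GRHL3 was at 3.73 and 3.54 after 72 h, against 6.25 and 6.49 untreated (-2.74 ± 0.331, adjusted p = 0.000809). EHF was at 7.40 and 8.72 after 72 h, against 11.51 and 11.03 untreated (-3.21 ± 0.527, adjusted p = 0.00417). The RNA-binding protein RBM47 (-1.27, adjusted p = 0.0207) and KLF5 (-0.54, adjusted p = 0.00834) fell by less. ELF3, another epithelial ETS factor, was at 2.97 and 5.67 after 72 h, against 7.20 and 9.23 untreated (-3.89 ± 1.12, adjusted p = 0.0529; 0.000351 with the block). The ELF3 libraries of a group were more than 2 log2 units apart, with replicate 2 higher in each group. The splicing factors ESRP1 (-0.67, adjusted p = 0.284; 0.0452 with the block) and ESRP2 (-0.82, adjusted p = 0.217; 0.0814 with the block) favour epithelial isoforms. RBM47 (0.0746 to 0.117) lost the call without any 1 of the 4 libraries. KLF5 (0.036 to 0.0726) lost the call without the 72 h replicate 1 library. Of the list 2 to 4 were called with 1 of the 4 libraries left out, fewest without the 72 h replicate 1 library.

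Adherens junction genes showed higher mesenchymal cadherins and an E-cadherin that was not called. E-cadherin, CDH1, was at 8.50 and 11.12 after 72 h, against 10.22 and 11.38 untreated (-0.99 ± 0.87, adjusted p = 0.548; 0.215 with the block). CDH1 was lower after 72 h in each replicate, with -1.72 in replicate 1 and -0.26 in replicate 2, but the 72 h replicate 2 library lay above the untreated replicate 1 library. N-cadherin, CDH2, was at 11.04 and 10.59 after 72 h, against 10.06 and 9.28 untreated (1.14 ± 0.322, adjusted p = 0.0483). CDH11, a cadherin of mesenchymal cells, was at 6.78 and 7.38 after 72 h, against 4.22 and 4.67 untreated (2.63 ± 0.487, adjusted p = 0.00743). Of the 17 tested genes 4 rose and 0 fell, and with the block 7 rose and 1 fell. The gene that fell with the block was EPCAM, an epithelial adhesion molecule, with a difference of -1.82 (adjusted p = 0.16; 0.000975 with the block). The nectin PVRL4 (1.69, adjusted p = 0.00695) and β-catenin, CTNNB1 (0.58, adjusted p = 0.031), were the other members that rose. CDH2 (0.0322 to 0.341) lost the call without the 72 h replicate 1, untreated replicate 2 or 72 h replicate 2 library. CDH11 (0.0289 to 0.0612) lost the call without the 72 h replicate 2 library. CTNNB1 (0.0776 to 0.158) lost the call without any 1 of the 4 libraries. Of the list 1 to 4 were called with 1 of the 4 libraries left out, fewest without the 72 h replicate 2 library.

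Among 18 genes of the tight junction and polarity list 1 rose and 4 fell, and with the block 1 and 9. The list also holds the splicing factor ESRP1, counted above as well, which is among those lower with the block only. The scaffold TJP3 was at 2.19 and 2.45 after 72 h, against 6.16 and 5.68 untreated (-3.60 ± 0.313, adjusted p = 0.000134), so that both 72 h libraries were below the filter limit of 3.33. Claudin 1, CLDN1, was at 7.73 and 8.68 after 72 h, against 9.78 and 10.18 untreated (-1.77 ± 0.431, adjusted p = 0.0264). The polarity genes PARD6A (-1.22, adjusted p = 0.0333) and PARD6B (-1.06, adjusted p = 0.0116) fell, and the scaffold TJP1 rose (0.61, adjusted p = 0.00677). Occludin, OCLN (-1.31, adjusted p = 0.159; 0.00847 with the block), and CLDN7 (-1.26, adjusted p = 0.131; 0.00105 with the block) passed with the block only. CLDN1 (0.0337 to 0.191) lost the call without the untreated replicate 1, 72 h replicate 1 or untreated replicate 2 library. PARD6A (0.0654 to 0.199) lost the call without any 1 of the 4 libraries. PARD6B (0.0256 to 0.11) lost the call without the 72 h replicate 1, untreated replicate 2 or 72 h replicate 2 library. TJP1 (0.0236 to 0.0642) lost the call without the untreated replicate 2 or 72 h replicate 2 library. Of the list 1 to 4 were called with 1 of the 4 libraries left out, fewest without the untreated replicate 2 library.

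Desmosomes had 2 of 12 tested members called, both lower, PPL and plakophilin 2, PKP2 (-1.39, adjusted p = 0.00804), and 4 were lower with the block. Over all genes 4.17% were lower, and 11.6% with the block. Of these genes 1 to 3 were called with 1 of the 4 libraries left out, fewest without the 72 h replicate 1 or untreated replicate 2 library. Desmoplakin, DSP (-0.24, adjusted p = 0.575; 0.234 with the block), was not called. Of 17 keratins 4 rose and 1 fell, against 5.22% and 4.17% of all genes. With the block 6 rose and 1 fell, against 11.8% and 11.6%. The hair-type keratin KRT34 was at 5.10 and 5.25 after 72 h, against 2.90 and 2.68 untreated (2.38 ± 0.237, adjusted p = 0.000313), from below the limit in the untreated libraries. The basal keratin KRT15 was at 6.04 and 6.51 after 72 h, against 7.96 and 9.53 untreated (-2.47 ± 0.542, adjusted p = 0.0168), and its untreated libraries were further apart than its 72 h libraries. KRT6A (0.90), KRT6C (0.83) and KRT8 (0.71) rose; KRT6A and KRT6C are near-identical, so that their reads could be split between them.

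The basal keratins KRT5 (-0.53, adjusted p = 0.244) and KRT14 (0.84, adjusted p = 0.166) were not called. PKP2 (0.0125 to 0.0823) lost the call without the 72 h replicate 1 or untreated replicate 2 library. KRT15 (0.00836 to 0.156) lost the call without the 72 h replicate 1, untreated replicate 2 or 72 h replicate 2 library. KRT6A (0.056 to 0.252) lost the call without any 1 of the 4 libraries. KRT6C (0.0397 to 0.271) lost the call without the untreated replicate 1, untreated replicate 2 or 72 h replicate 2 library. Of the keratins 2 to 3 were called with 1 of the 4 libraries left out, fewest without the untreated replicate 2 or 72 h replicate 2 library.

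Genes of keratinocyte differentiation and the S100 family fell or were not called. Of 14 cornified envelope genes 0 rose and 3 fell, TGM1, the siderophore-binding lipocalin LCN2 and filaggrin, FLG (-0.88, adjusted p = 0.0444). With the block 1 rose and 5 fell. LCN2 was at 3.11 and 4.43 after 72 h, against 6.29 and 6.75 untreated (-2.75 ± 0.396, adjusted p = 0.00207). Involucrin, IVL, a precursor of the cornified envelope, had a difference of 1.75 (adjusted p = 0.157; 0.0329 with the block). Of 13 S100 genes 0 rose and 4 fell, and the count with the block was 6. S100P was at 6.50 and 5.98 after 72 h, against 10.38 and 9.48 untreated (-3.69 ± 0.447, adjusted p = 0.000809), and S100A6 at 14.64 and 14.10 after 72 h, against 15.22 and 15.24 untreated (-0.86 ± 0.206, adjusted p = 0.0244). S100A4, which is used as a mesenchymal marker, had a difference of -1.60 (adjusted p = 0.252; 0.0474 with the block). FLG (0.0315 to 0.319) lost the call without the 72 h replicate 1, untreated replicate 2 or 72 h replicate 2 library. S100A6 (0.0244 to 0.179) lost the call without the untreated replicate 1, untreated replicate 2 or 72 h replicate 2 library.

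Without the block, called members of the matrix glycoprotein and collagen lists were all higher, and most members of both were not called. Of 30 matrix glycoproteins, laminins and proteoglycans 13 rose and 0 fell (43.3% against 5.22% of all genes), with a median of 1.1. With the block 16 rose and 2 fell. After POSTN and FN1, the elastic fibre protein FBLN5 was at 8.16 and 7.85 after 72 h, against 4.85 and 4.77 untreated (3.19 ± 0.466, adjusted p = 0.00223). TGFBI, a matrix protein named for its induction by TGF-β, was at 18.42 and 18.36 after 72 h, against 15.78 and 15.28 untreated (2.86 ± 0.274, adjusted p = 0.000241). Its 72 h values were nearly equal, and FBLN5 likewise had groups that were narrow and far apart. LAMB3, a laminin chain of the basement membrane, was at 16.13 and 16.95 after 72 h, against 14.89 and 14.87 untreated (1.66 ± 0.331, adjusted p = 0.0105). LAMB3 (0.0163 to 0.0891) lost the call without the untreated replicate 2 or 72 h replicate 2 library. Of the list 8 to 11 were called with 1 of the 4 libraries left out, fewest without the untreated replicate 2 or 72 h replicate 2 library.

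Of 19 tested collagen chains 6 rose and 0 fell, and 9 rose with the block. COL1A1, a chain of fibrillar collagen I, was at 9.54 and 9.72 after 72 h, against 6.71 and 6.94 untreated (2.81 ± 0.371, adjusted p = 0.00136). COL4A1, of basement membrane, was at 14.23 and 13.91 after 72 h, against 11.60 and 11.73 untreated (2.40 ± 0.156, adjusted p = 7.96e-05). COL6A3 had the largest difference, 3.35 ± 0.781 (adjusted p = 0.0218), with wide groups of 11.27 and 9.67 against 8.37 and 5.88 untreated. COL7A1, of anchoring fibrils, rose by 2.45 ± 0.292 (adjusted p = 0.000745). COL1A2, the partner chain of COL1A1, had a difference of 1.62 (adjusted p = 0.0548; 0.00807 with the block). COL6A3 (0.00669 to 0.189) lost the call without the 72 h replicate 1 or untreated replicate 2 library. Of the list 4 to 7 were called with 1 of the 4 libraries left out, fewest without the 72 h replicate 1 or untreated replicate 2 library.

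Enzymes that modify or cross-link collagen followed, with 5 of 15 higher and 0 lower, and 9 higher with the block. Transglutaminase 2, TGM2, was at 14.75 and 14.95 after 72 h, against 11.54 and 11.31 untreated (3.43 ± 0.483, adjusted p = 0.00192). The prolyl hydroxylase P4HA3 was at 8.28 and 6.92 after 72 h, against 4.26 and 4.22 untreated (3.36 ± 0.481, adjusted p = 0.00207), and P4HA2 rose by 1.54 ± 0.169 (adjusted p = 0.000471). TGM2 rose where TGM1, the epidermal transglutaminase, fell. The lysyl oxidase LOX had a difference of 0.48, adjusted p = 0.626 (0.401 with the block). Of 30 matrix proteases and inhibitors 7 rose and 0 fell, and with the block 11 and 2. ADAMTS6 was at 10.17 and 10.16 after 72 h, against 7.38 and 7.02 untreated (2.97 ± 0.334, adjusted p = 0.000531), and ADAM19 rose by 2.66 ± 0.407 (adjusted p = 0.00286). Urokinase, PLAU, was at 11.81 and 12.72 after 72 h, against 9.98 and 10.43 untreated (2.07 ± 0.477, adjusted p = 0.021). PLAU (0.0393 to 0.148) lost the call without the untreated replicate 1, untreated replicate 2 or 72 h replicate 2 library. Of the proteases 4 to 7 were called with 1 of the 4 libraries left out, fewest without the 72 h replicate 2 library.

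Of 15 integrin subunits 6 rose and 2 fell, against 5.22% and 4.17% of all genes. With the block 7 rose and 3 fell, against 11.8% and 11.6%. After ITGB3, the fibronectin receptor subunit ITGA5 was at 14.32 and 14.08 after 72 h, against 12.76 and 12.62 untreated (1.51 ± 0.266, adjusted p = 0.00594), and ITGAV, which pairs with β3, at 14.06 and 14.19 after 72 h, against 13.05 and 12.75 untreated (1.22 ± 0.23, adjusted p = 0.00809). ITGB8 (-1.32, adjusted p = 0.014) and ITGA10 (-1.31, adjusted p = 0.0362) fell. The hemidesmosome subunits ITGA6 (0.08, adjusted p = 0.93) and ITGB4 (0.32, adjusted p = 0.786) were not called. ITGA5 (0.0233 to 0.0528) lost the call without the 72 h replicate 1 or untreated replicate 2 library. ITGAV (0.0194 to 0.0809) lost the call without the untreated replicate 2 or 72 h replicate 2 library. ITGB8 (0.0281 to 0.114) lost the call without the untreated replicate 1 or 72 h replicate 1 library. ITGA10 (0.0258 to 0.285) lost the call without the 72 h replicate 1, untreated replicate 2 or 72 h replicate 2 library. Of the list 3 to 6 were called with 1 of the 4 libraries left out, fewest without the 72 h replicate 1, untreated replicate 2 or 72 h replicate 2 library.

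The contractile and mesenchymal cytoskeleton had 13 of 30 tested genes higher and 0 lower (43.3% higher), and with the block 19 and 1. The myosin light chain MYL9 was at 9.99 and 10.15 after 72 h, against 7.01 and 7.71 untreated (2.71 ± 0.332, adjusted p = 0.000845). Smooth muscle actin, ACTA2, a marker of myofibroblasts, had a difference of -0.09, adjusted p = 0.885 (0.741 with the block). Vimentin, VIM, the mesenchymal intermediate filament, was at 15.59 and 15.30 after 72 h, against 14.96 and 14.42 untreated (0.76 ± 0.232, adjusted p = 0.0648; 0.00882 with the block). Both 72 h libraries of VIM were above both untreated ones, and the level was high in all 4. Of the list 9 to 12 were called with 1 of the 4 libraries left out, fewest without the 72 h replicate 2 library.

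Outside the EMT lists, genes of xenobiotic metabolism and of the acute phase were mostly lower where called. Of 19 aryl hydrocarbon receptor targets, aldehyde dehydrogenases and antioxidant genes 2 rose and 5 fell, against 5.22% and 4.17% of all genes, and with the block 2 and 9, against 11.8% and 11.6%. In both replicates 16 were lower, against 37.7% of all genes. The aldo-keto reductase AKR1B10 was at 4.31 and 4.54 after 72 h, against 6.75 and 7.76 untreated (-2.83 ± 0.391, adjusted p = 0.0018), and the haem oxygenase HMOX1 rose by 1.73 ± 0.402 (adjusted p = 0.0212). Of 14 acute-phase and complement genes 1 rose and 4 fell, and with the block 1 and 6. SAA2, an acute-phase apolipoprotein with a near-identical paralog, was at 6.32 and 7.20 after 72 h, against 8.56 and 9.23 untreated (-2.14 ± 0.345, adjusted p = 0.00377), and its paralog SAA1 had a difference of -1.25 (adjusted p = 0.122; 7.35e-05 with the block). Complement C3 fell by 1.05 ± 0.194 (adjusted p = 0.00744), and CD59, which protects cells from complement, rose by 1.04 ± 0.121 (adjusted p = 0.000626). HMOX1 (0.0207 to 0.189) lost the call without the 72 h replicate 1 or untreated replicate 2 library. C3 (0.0213 to 0.0677) lost the call without the 72 h replicate 2 library.

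In the prostaglandin and leukotriene list 1 of 14 rose, ALOX5AP, and 3 fell, and with the block 3 and 7. HPGD, which degrades prostaglandins, fell by 2.65 ± 0.282 (adjusted p = 0.000455). PTGS2, the inducible cyclooxygenase, was at 7.39 and 8.11 after 72 h, against 7.17 and 5.15 untreated (1.59, adjusted p = 0.0869; 0.0459 with the block). Among ligands of the EGF receptor, epiregulin, EREG, fell by 1.86 ± 0.214 (adjusted p = 0.000567), in a list with 0 higher and 3 lower of 16 and with the block 1 and 5. Of 11 AP-1 subunits 1 rose and 1 fell, against 5.22% and 4.17% of all genes, and with the block 3 and 2, against 11.8% and 11.6%. JUN was at 10.79 and 10.62 after 72 h, against 9.22 and 8.35 untreated (1.92 ± 0.298, adjusted p = 0.00304), and FOS at 7.53 and 7.96 after 72 h, against 9.08 and 9.10 untreated (-1.35 ± 0.373, adjusted p = 0.0448). Of 16 WNT ligands and antagonists 3 rose and 1 fell. WNT5A, a ligand of β-catenin-independent signalling, was at 11.43 and 11.67 after 72 h, against 9.49 and 7.86 untreated (2.87 ± 0.405, adjusted p = 0.00192). VEGFA, the vascular growth factor, rose by 1.64 ± 0.371 (adjusted p = 0.0196). With 1 library left out, 1 to 2 (fewest without the 72 h replicate 1 or untreated replicate 2 library) of the EGF list, 1 to 2 (fewest without the 72 h replicate 1, untreated replicate 2 or 72 h replicate 2 library) of the AP-1 list and 2 to 4 (fewest without the 72 h replicate 1 or untreated replicate 2 library) of the WNT list were called.

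FOS (0.0968 to 0.229) lost the call without any 1 of the 4 libraries. VEGFA (0.0351 to 0.142) lost the call without the untreated replicate 1, untreated replicate 2 or 72 h replicate 2 library. The list counts that follow stand beside shares over all genes of 5.22% higher and 4.17% lower, or 11.8% and 11.6% with the block. Cytokines and NF-kB targets had 3 higher and 3 lower of 29, with the block 5 and 4, led by IL11 and by the superoxide dismutase SOD2, at 12.05 and 11.73 after 72 h, against 13.85 and 13.46 untreated (-1.77 ± 0.42, adjusted p = 0.0237). Fibroblast growth factor genes had 0 higher and 2 lower of 10, FGFBP1 and FGFR4 (-0.97, adjusted p = 0.0206), and with the block 4 and 3. Notch genes had 2 higher and 1 lower of 13, and NOTCH1, a receptor, fell by 1.11 ± 0.171 (adjusted p = 0.00293). YAP and TAZ targets had 3 higher and 1 lower of 18, with the block 8 and 1, and 0 to 2 (fewest without the untreated replicate 2 or 72 h replicate 2 library) with 1 library left out. The matricellular CTGF, at 10.22 and 9.80 after 72 h, against 8.52 and 6.76 untreated (2.37 ± 0.507, adjusted p = 0.0149), led the YAP list and is also a SMAD target. SOD2 (0.08 to 0.133) lost the call without any 1 of the 4 libraries. FGFR4 (0.016 to 0.161) lost the call without the untreated replicate 1, 72 h replicate 1 or untreated replicate 2 library. CTGF (0.00294 to 0.117) lost the call without the 72 h replicate 1, untreated replicate 2 or 72 h replicate 2 library. With 1 library left out, 3 to 6 (fewest without the 72 h replicate 2 library) cytokine genes and 1 to 2 (fewest without the 72 h replicate 1 or untreated replicate 2 library) fibroblast growth factor genes were called.

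In the unfolded protein and amino acid stress list 7 of 20 rose and 1 fell. The members that rose serve the endoplasmic reticulum: the coat protein SEC24D (1.23, adjusted p = 0.000845), the transcription factor CREB3L2 (0.91, adjusted p = 0.0395), DNAJB9 (0.79, adjusted p = 0.0196) and HERPUD1 (0.76, adjusted p = 0.0188) were the largest. DDIT4, an inhibitor of mTOR signalling, fell (-1.38, adjusted p = 0.0188). ATF4 (-0.05, adjusted p = 0.927; 0.869 with the block) and ASNS (-0.43, adjusted p = 0.744; 0.28 with the block), of the amino acid arm, were not called. CREB3L2 (0.0709 to 0.227) lost the call without any 1 of the 4 libraries. DNAJB9 (0.0091 to 0.175) and HERPUD1 (0.00756 to 0.168) lost the call without the 72 h replicate 1, untreated replicate 2 or 72 h replicate 2 library. DDIT4 (0.0268 to 0.141) lost the call without the untreated replicate 1, untreated replicate 2 or 72 h replicate 2 library. Of the list 2 to 6 were called with 1 of the 4 libraries left out, fewest without the untreated replicate 2 or 72 h replicate 2 library.

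Further lists are given beside the shares over all genes, which were 5.22% higher and 4.17% lower. By list these shares were 2.94% and 8.82% for interferon, 11.8% and 5.88% for MHC class I and 7.69% and 3.85% for glycolysis genes. They were 0% and 4.0% for cholesterol genes, 0% and 0% for histones and 4.55% and 0% for demethylases. Interferon-stimulated genes had 1 higher and 3 lower of 34, MHC class I genes 2 and 1 of 17, glycolysis and hypoxia genes 2 and 1 of 26, cholesterol and fatty acid genes 0 and 1 of 25, replication-dependent histones 0 and 0 of 25 in limma (0 at an unadjusted p under 0.05), and histone lysine demethylases 1 and 0 of 22. With the block, where 11.8% of all genes were higher and 11.6% lower, these counts were 3 and 7, 2 and 3, 2 and 4, 3 and 2, 0 and 1, and 5 and 0. With 1 of the 4 libraries left out, members called numbered 1 to 4 (fewest without the 72 h replicate 1 or untreated replicate 2 library) for interferon, 0 to 3 (fewest without the untreated replicate 2 or 72 h replicate 2 library) for MHC, 0 to 1 (fewest without the untreated replicate 1 or 72 h replicate 2 library) for glycolysis, 0 to 1 (fewest without the 72 h replicate 1, untreated replicate 2 or 72 h replicate 2 library) for cholesterol genes and 0 in each fit for demethylases.

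Growth regulators changed in single genes. CDK inhibitors and D-type cyclins, a list that includes MYC, had 1 of 12 higher and 1 lower, against 5.22% and 4.17% of all genes. Of this list 0 to 2 were called with 1 of the 4 libraries left out, fewest without the 72 h replicate 1 or untreated replicate 2 library. MYC, which drives ribosome production and growth and is repressed by SMADs, was at 11.71 and 11.93 after 72 h, against 12.85 and 13.06 untreated (-1.14 ± 0.246, adjusted p = 0.0154). CDKN1A, the CDK inhibitor p21, had a difference of 0.44 (adjusted p = 0.29; 0.123 with the block), and CDKN2D rose by 1.03 ± 0.247 (adjusted p = 0.0243). MYC (0.0413 to 0.122) lost the call without the 72 h replicate 1, untreated replicate 2 or 72 h replicate 2 library. CDKN2D (0.0344 to 0.183) lost the call without the 72 h replicate 1 or untreated replicate 2 library.

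Ribosomal proteins and respiratory chain subunits had called members on the lower side alone, with small differences. Of 44 cytosolic ribosomal proteins 0 rose and 17 fell (38.6% against 4.17% of all genes), and 42 were lower in both replicates, against 37.7% of all genes. The median was -0.37 and no member lay below -0.48. RPL5 was at 14.07 and 14.02 after 72 h, against 14.46 and 14.55 untreated (-0.46 ± 0.105, adjusted p = 0.0194). Of 32 respiratory chain subunits 0 rose and 12 fell, 31 were lower in both replicates, and the median was -0.44. The cytochrome CYC1 was at 11.99 and 11.91 after 72 h, against 12.59 and 12.62 untreated (-0.65 ± 0.13, adjusted p = 0.0105). In both genes the replicates of a group were closer to each other than to the other group.

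The counts of these 2 lists depended on the fit. With the block 35 ribosomal proteins and 24 respiratory subunits fell. After each library was centred on its median the counts were 6 and 10, without the mean-variance trend 5 and 7, and over the 4 libraries alone 0 and 0. For ribosomal proteins 0 to 1 were called with 1 of the 4 libraries left out, fewest without the 72 h replicate 1, untreated replicate 2 or 72 h replicate 2 library, and for respiratory subunits 1 to 6 were called with 1 of the 4 libraries left out, fewest without the untreated replicate 2 or 72 h replicate 2 library. The median of the 2 lists was -0.35 and -0.43 after centring, and reads of ribosomal proteins can be shared with pseudogenes. In the list of MYC and ribosome biogenesis 0 rose and 3 of 25 fell, MYC, the nucleolar chaperone NPM1 (-0.52, adjusted p = 0.024) and WDR12 (-0.51, adjusted p = 0.0414), with 12 lower with the block, 0 to 3 (fewest without the 72 h replicate 1, untreated replicate 2 or 72 h replicate 2 library) called with 1 library left out, and 24 lower in both replicates. RPL5 (0.0493 to 0.146), CYC1 (0.0417 to 0.0782), NPM1 (0.0495 to 0.182) and WDR12 (0.0253 to 0.316) lost the call without the 72 h replicate 1, untreated replicate 2 or 72 h replicate 2 library.

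The levels at 24 and 48 h place the 72 h state within the time course. No gene was called at 72 h against 24 h in limma (0%), with or without the block, although 905 genes had an unadjusted p under 0.05, and 2182 with the block. Without the 24 h replicate 2 library 78 genes were called, 72 of them higher at 72 h. Of the 15 largest increases, 6 were higher at 72 h than at 24 h in both replicates and 7 were lower in both. Of the 15 largest decreases, 13 were lower at 72 h than at 24 h in both. Over all genes tested, 31.6% were higher and 34.0% lower in both, but these 30 genes were chosen on the same 72 h libraries, so that their counts are a description only. POSTN had values of 6.78, 10.41, 11.76 and 12.42 at 0, 24, 48 and 72 h in replicate 1 and 5.21, 9.13, 11.06 and 11.68 in replicate 2, higher at each later time. KANK4 had values of 6.42, 11.15, 11.27 and 10.74 in replicate 1 and 5.70, 11.59, 11.66 and 11.21 in replicate 2, and its 24 h level was above its 72 h level in both. SNAI1 had values of 5.62, 7.84, 7.28 and 7.30 and 5.22, 9.09, 8.64 and 8.04, with the highest value at 24 h in both replicates.

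The genes with the lowest p at 72 h against 24 h were chosen after their values were seen. KRT34 had values of 2.90, 3.45, 4.40 and 5.10 at 0, 24, 48 and 72 h in replicate 1 and 2.68, 3.56, 5.02 and 5.25 in replicate 2. Its difference of 72 h minus 24 h was 1.67 ± 0.237 (unadjusted p = 1.97e-05, adjusted p = 0.268; 0.107 with the block). C10orf116, an adipocyte-enriched protein, had -1.69 ± 0.276 (adjusted p = 0.451; 0.107 with the block), the chemokine CXCL3 1.00 ± 0.172 (adjusted p = 0.497; 0.118 with the block) and S100P -2.24 ± 0.447 (adjusted p = 0.669; 0.147 with the block). All 4 were also called at 72 h against untreated, in the same direction, but that comparison uses the same 72 h libraries.

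No member of the replication and mitosis list was called at 72 h without the block. Of 43 replication and mitosis genes 39 were higher at 72 h than at 24 h in both replicates, against 31.6% of all genes tested, with a median of 0.7. Relative to the untreated library of the same replicate, their median was -0.85 in replicate 1 and -0.18 in replicate 2 at 24 h, 0.54 in replicate 1 and -0.13 in replicate 2 at 48 h and 0.34 in replicate 1 and -0.03 in replicate 2 at 72 h. The proliferation marker MKI67 had values of 11.72, 10.74, 12.34 and 12.15 at 0, 24, 48 and 72 h in replicate 1 and 12.28, 12.36, 12.33 and 12.40 in replicate 2. The lower level at 24 h was larger in replicate 1, and 0 of the 43 genes passed the limma test at 72 h against untreated (1 at an unadjusted p under 0.05, 1 called with the block) or against 24 h (18 at an unadjusted p under 0.05). Of 44 ribosomal proteins 42 were lower at 72 h than at 24 h in both replicates, against 34.0% of all genes, with a median of -0.24.

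**Figure D4:**
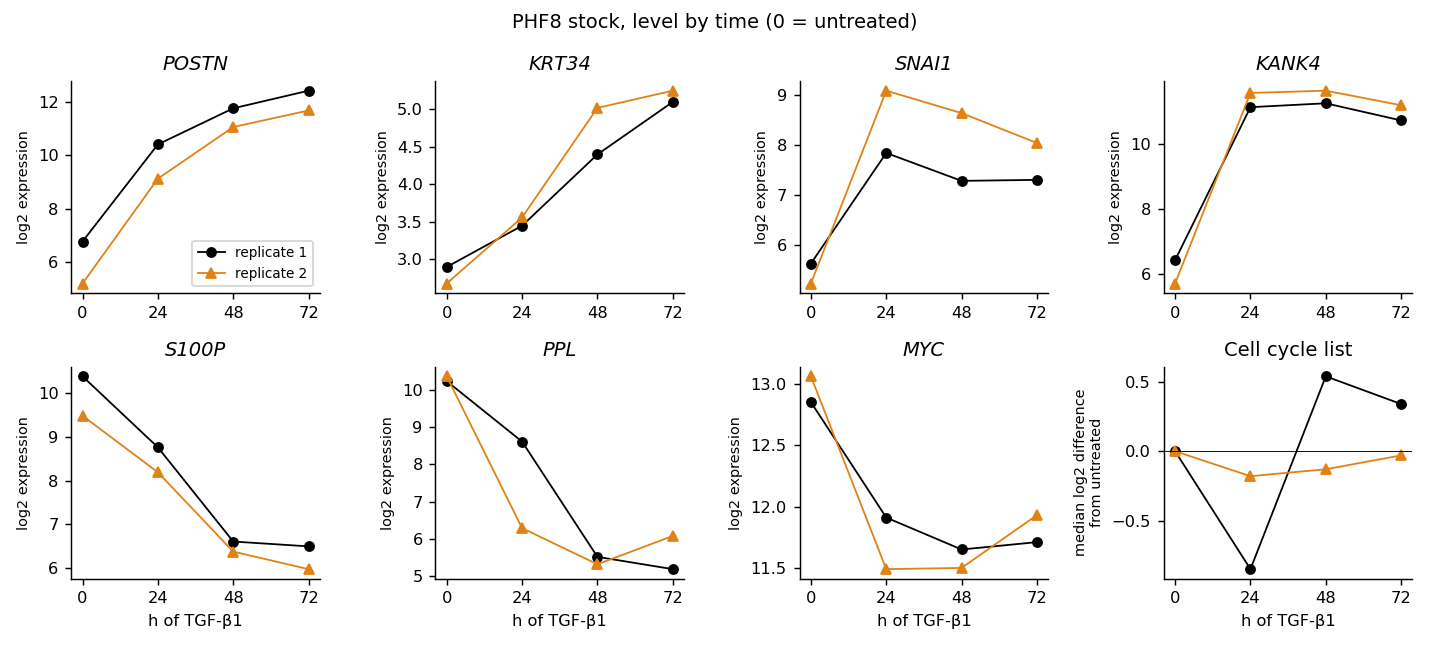
Level by time of TGF-β1 in the PHF8 stock (x axis, h; 0 is untreated) for 7 genes (y axis, log2 expression as deposited) and, at the lower right, the median difference of 43 cell cycle genes from the untreated library of the same replicate. Each line is a replicate, POSTN is higher at each later time, SNAI1 is highest at 24 h, and the cell cycle median is lowest at 24 h in both replicates.

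The response of the PHF8 stock was set beside that of the Mock stock, which shares no library with it. No gene was called for a difference between the 2 responses in limma (0%), with or without the block, while 131 genes had an unadjusted p under 0.05, and 393 with the block. Of the 1273 genes called in the PHF8 stock, 1266 moved in the same direction in both Mock replicates, against 76.4% of all genes with the same direction in both PHF8 replicates. The called higher genes had a median of 0.92 in the PHF8 stock and 0.99 in Mock, and the called lower genes -0.86 in the PHF8 stock and -0.79 in Mock. Of the 15 largest increases 13 were smaller in the PHF8 stock than in Mock, and of the 15 largest decreases 11 were smaller in size, although these genes were chosen on the PHF8 values. The differences between the responses lay between -0.84 and 0.53 for the increases and between -1.12 and 1.01 for the decreases, each with adjusted p = 1.0. The SE of the difference was between 0.406 and 1.25 over these 30 genes, and a p that misses the threshold does not show that the stocks respond alike.

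For the EMT readouts, CDH2 rose by 1.14 in the PHF8 stock, against 1.96 in Mock (PHF8 minus Mock -0.82 ± 0.455, adjusted p = 1.0). VIM had a difference of 0.76 in the PHF8 stock, against 1.29 in Mock (PHF8 minus Mock -0.53 ± 0.328, adjusted p = 1.0), and SNAI1 one of 2.25 in the PHF8 stock, against 3.44 in Mock (PHF8 minus Mock -1.19 ± 0.981, adjusted p = 1.0). The unadjusted p of these 3 were 0.0991, 0.134 and 0.251. SNAI2 had a difference of 1.84 in the PHF8 stock, against 1.93 in Mock, and SMAD7 one of 1.96, against 2.02.

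The gene with the lowest p, COBL, an actin nucleator, was named after its values were seen. In the PHF8 stock COBL was at 7.46 and 7.91 after 72 h, against 9.10 and 9.55 untreated. In Mock it was at 5.23 and 5.71 after 72 h, against 8.81 and 9.35 untreated. COBL thus fell by 1.64 in the PHF8 stock and by 3.61 in Mock, and the responses differed by 1.97 ± 0.351 (unadjusted p = 0.000148, adjusted p = 1.0; 0.137 with the block). The carbonic anhydrase CA2, also chosen so, had a difference of -0.59 in the PHF8 stock, against -2.43 in Mock (unadjusted p = 0.0002, adjusted p = 1.0).

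**Figure D5:**
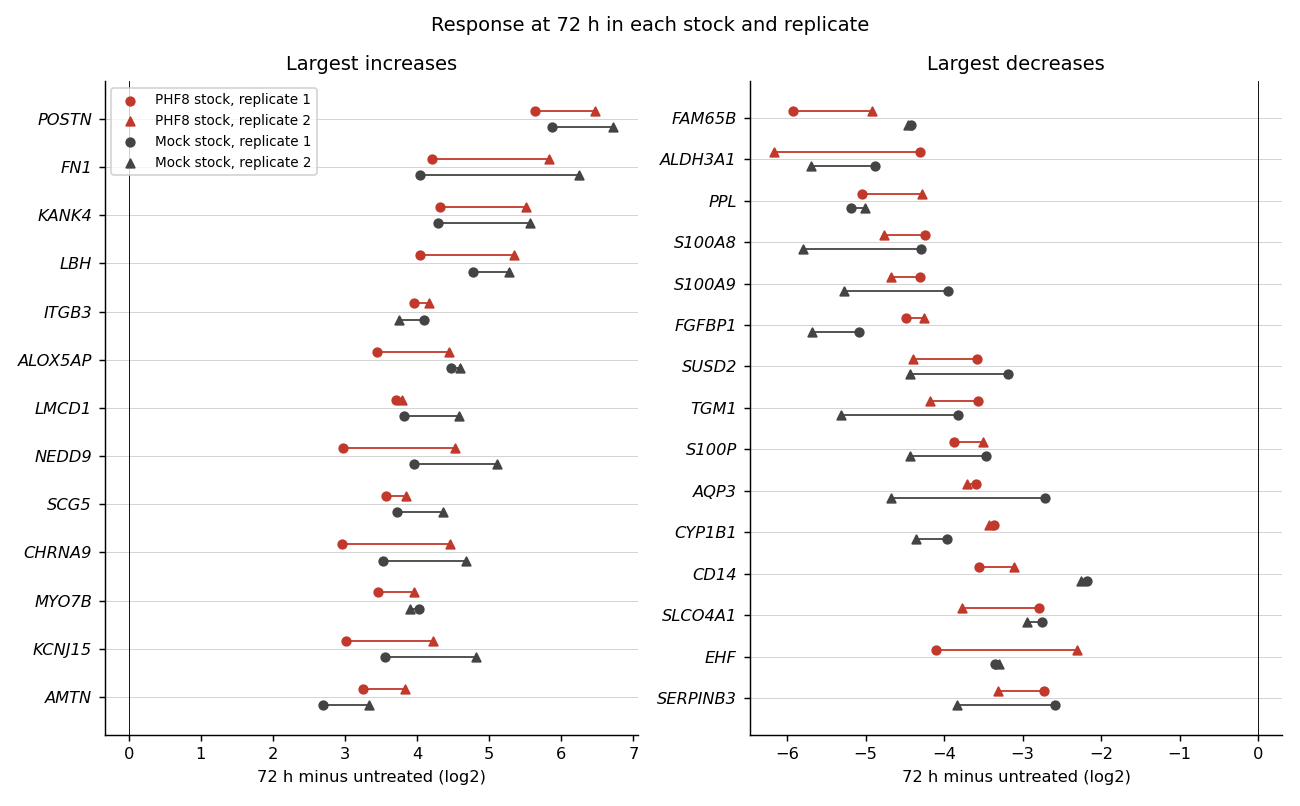
Difference 72 h minus untreated (x axis, log2) in the PHF8 stock (red, upper of each pair) and the Mock stock (grey, lower) for 13 of the 15 largest increases (left) and the 15 largest decreases (right) of the PHF8 stock. Circles are replicate 1 and triangles replicate 2, the line joins the replicates, and the 2 stocks lie on the same side of 0 in all 28 genes.

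Of all genes tested, 75.1% had the same direction in both replicates, and the others did not. Among genes with at least 100 normalised counts in a group, the 8 with the largest gap between replicates were PTGS2, MMP9, MYH15, L1CAM, MAP2, IL7R, KIAA1644 and DAPK1. The gelatinase MMP9 was at 6.45 and 8.88 after 72 h, against 4.68 and 4.68 untreated (2.99 ± 1.6, adjusted p = 0.293; 0.0687 with the block). The untreated pair of MMP9 was equal, and the 72 h replicate 2 library was far above that of replicate 1. The neural adhesion molecule L1CAM was at 7.21 and 8.32 after 72 h, against 7.80 and 6.60 untreated (0.57, adjusted p = 0.445), lower after 72 h in replicate 1 and higher in replicate 2. MAP2, a microtubule protein, was at 7.23 and 6.69 after 72 h, against 9.38 and 6.54 untreated (adjusted p = 0.585), and its untreated replicate 1 library stood above the other 3. IL7R, the interleukin-7 receptor, was at 6.69 and 6.35 after 72 h, against 8.29 and 5.77 untreated (-0.51, adjusted p = 0.714), again with opposite directions. MYH15, a myosin heavy chain, was at 6.46 and 7.12 after 72 h, against 6.31 and 4.55 untreated (1.36, adjusted p = 0.213). KIAA1644 rose by 2.81 ± 0.62 (adjusted p = 0.0173) and DAPK1, a death-associated kinase, fell by 1.67 ± 0.438 (adjusted p = 0.0358), both with groups that did not overlap. KIAA1644 (0.00115 to 0.102) lost the call without the 72 h replicate 1, untreated replicate 2 or 72 h replicate 2 library. DAPK1 (0.00792 to 0.187) lost the call without the untreated replicate 1, 72 h replicate 1 or 72 h replicate 2 library.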

How the data were processed

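Gene expression was measured by RNA-seq of rRNA-depleted RNA with stranded, paired-end libraries, per the labels' protocols. Per the submitters' processing notes, reads were aligned to hg19 with TopHat2 2.0.13, counted with featureCounts of Subread 1.4.6 and processed with DESeq2, with no version given. Whether counting used the strand is not given in the sources used here. The deposited unit is log2 expression, 1 value for each gene in each library, and the authors' transformation is not given in the sources used here. The base was taken as 2. Raised so, the values gave library sums in a narrow range, from 18800000 to 21200000, which alone cannot settle the base. A transformation that shrinks weakly expressed genes would make their differences smaller. Since raw counts were not used here, the depth of each library is unknown and no counting interval is given.

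Of 23368 entries, 28 were dropped because their symbols had turned into dates, and 4064 were listed at 0 throughout. Genes at 3.33 or more in at least 2 of 16 libraries were tested (13564), and 4 value columns of no named sample were not used. The test was limma 3.58.1 (R 4.3.3, no pseudocount), with a mean-variance trend, 1 mean for each of 8 groups and 8 residual degrees of freedom (7 with the block), with Benjamini-Hochberg adjustment over all tested genes. The code was tested on simulated data. Groups came from the labels. Replicate numbers are sequencing rounds in the labels, so they pair the libraries by round. Whether the libraries of a round also share a culture is not stated. Deviations from the group means of libraries of 1 round had a correlation of 0.594 between the 72 h and untreated groups and of 0.206 to 0.749 over all pairs of groups.

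The subject, the lists and the tests were chosen with earlier results of these data known. The 44 lists held 932 symbols, of which 928 were found, 9 of them under another symbol, and 808 were tested. Genes named are the 15 largest called increases and decreases with the same direction in both replicates and at least 100 normalised counts in the higher group, list members (called ones in order of size, up to 4 a direction), the 8 genes with the largest gap between replicates, and PHF8. Some genes that this rule names are not reported here. Genes named at 72 h against 24 h and between stocks were chosen after their values were seen, since none was called. Alternatives were the replicate block, other filters, no trend, 2 other scalings, a robust fit, fewer libraries and, added after seeing the data, a 2-fold minimum. Promoters are those of RefSeq (GRCh38.p14), a build other than the authors'.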

Additional observations from a re-analysis of the deposited data

How the results depend on the processing

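The count of 1273 genes at 72 h against untreated kept within 1.5 times under no filter on low values (1149), a filter at 100 normalised counts (1210), no mean-variance trend (1155), centring (1271), quantile normalisation (1330) and a robust fit (1274). The paired fit with the replicate block gave 3174 genes, the 4 libraries alone gave 230, and a minimum of 2-fold, added after seeing the data, left 557. With 1 library left out the count was 394 to 901. Between stocks the count was 0 under each alternative run. At 72 h against 24 h it was 0 to 78 with 1 library left out, and 0 under the other alternatives. A group left with 1 library is assumed to vary like the other groups. Of 166 genes named and tested, 50 were not called, and no call of the others turned its direction in the 12 alternatives. All the called genes kept the call under the block, quantile normalisation and the robust fit, 115 after centring, 112 without the filter, 111 without the trend and 58 over the 4 libraries alone, and the block added 20 of the 50. With 1 library left out 69 to 96 kept it. The block changed the count of called members by over 1.5 times in 28 of 44 lists. The cause of these differences was not tested.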
